A study of Rattus norvegicus with 24 samples.

Results

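Tumours taken from the colon of rats that had drunk dextran sodium sulfate (DSS) were compared with normal colon of rats that had not, so that neither side held the normal colon that the irritant had touched. The samples were chosen by their labels alone: tumours of DSS rats (rats 1, 5, 6, 7 and 9, on 6 arrays) and normal colon of untreated rats (rats 2, 3, 4, 8 and 10, on 7 arrays), which makes 10 of the 20 samples of the series. No rat gave tissue to both sides. Every animal was a male of the strain (ACIxF344)F1-Pirc with the genotype Apc-Pirc/+, aged 97 days and kept under a 12 h light:dark cycle, and the tissue was distal colon. Pirc rats carry a mutant Apc allele and develop tumours of the colon and small intestine. The mutant allele is therefore in the normal colon of the controls as well as in the tumours. The treated rats had 4% DSS (molecular weight 500000) in their drinking water on days 40 to 47 and again on days 54 to 61, and the untreated rats had none. The samples are pieces of whole tissue, in which fewer cells of a type and less RNA per cell cannot be told apart.

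Apc is a scaffold of the protein complex that marks beta-catenin for destruction. When the complex fails, beta-catenin collects in the nucleus, binds transcription factors of the TCF and LEF family and switches on Wnt target genes, which in the healthy gut are active near the crypt base. In the colon, stem cells there give rise to absorptive colonocytes, which take up salt, water and short-chain fatty acids, and to goblet and hormone-producing cells. DSS is a polymer that injures this lining and draws in inflammatory cells.

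Each sample was labelled with Cy3 and hybridised beside a Cy5-labelled pool of wild-type rat colon, and levels are given as log2 of sample over pool. The values of a gene are listed for tumours in the order rats 1, 5, 6, 7 and 9 and for normal colon in the order rats 2, 3, 4, 8 and 10. A change is tumour minus normal on the log2 scale with the standard error of a limma model of all 20 samples (5 rats in each group), and a feature passed when its p-value, adjusted by the Benjamini-Hochberg method over 26527 features, was below 0.05. The share of probes detected above background in Cy3 was 47.6% to 70.5% per array, except on 3 arrays with 86.9% to 95.2%: the first array of rat 2 normal colon, the array of rat 4 normal colon and that of rat 9 tumour. The slide identifiers fall into 2 series, called lots here, with rats 1 to 6 in lot 1 and rats 7 to 10 in lot 2, and lot 2 is also the whole of scan day 3. Across features the tumours of DSS rats correlated with each other at 0.834 to 0.934 where they shared a lot and at 0.721 to 0.815 where they did not. For the normal colon of untreated rats the values were 0.687 to 0.915 and 0.593 to 0.795. The labelled tissue was checked against markers: all 8 epithelial markers on the array were measured in both groups, and 2 of them fell in the tumours. The normal colon of rat 8 stood apart in 7 squamous epithelium markers with a mean of 1.78 against -0.01 in the lowest normal sample and 0.18 in the highest tumour. All counts below include rat 8, and the number of features that passed was 3966 without it.

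The promoters of 5 genes that rose are shown because each holds a motif of the transcription factors at issue, TCF and LEF for the Wnt pathway and NF-kappaB for inflammation. The sequences are RefSeq's, on build GRCr8, 5′ to 3′ along the gene, each spanning its transcription start, with the motif in capitals. The first 3 hold the TCF and LEF motif, searched as CTTTGAT or CTTTGAA on both strands, and in Cd44 the match lies on the opposite strand.
Axin2, chr10:94398535-94398834, plus strand: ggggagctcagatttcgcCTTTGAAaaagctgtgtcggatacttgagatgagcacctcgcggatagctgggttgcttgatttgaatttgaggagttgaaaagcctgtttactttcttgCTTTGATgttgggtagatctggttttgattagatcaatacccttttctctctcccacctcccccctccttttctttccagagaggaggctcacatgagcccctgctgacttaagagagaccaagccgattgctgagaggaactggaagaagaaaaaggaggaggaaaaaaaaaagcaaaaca
Nkd1, chr19:34722797-34723096, minus strand: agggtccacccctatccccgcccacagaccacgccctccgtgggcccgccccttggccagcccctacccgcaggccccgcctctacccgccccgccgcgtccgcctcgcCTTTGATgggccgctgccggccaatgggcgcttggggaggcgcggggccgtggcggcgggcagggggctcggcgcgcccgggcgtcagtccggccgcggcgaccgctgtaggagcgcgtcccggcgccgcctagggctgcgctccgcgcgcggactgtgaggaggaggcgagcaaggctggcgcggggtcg
Cd44, chr3:109699375-109699674, minus strand: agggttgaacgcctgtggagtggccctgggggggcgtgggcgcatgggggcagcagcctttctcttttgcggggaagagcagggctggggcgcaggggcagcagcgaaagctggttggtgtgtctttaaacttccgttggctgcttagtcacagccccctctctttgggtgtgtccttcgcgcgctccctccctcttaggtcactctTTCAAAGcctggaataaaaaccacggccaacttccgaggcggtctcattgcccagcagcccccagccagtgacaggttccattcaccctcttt
The last 2 hold the NF-kappaB motif, searched on both strands as GGGA or GGGG, then any base, then TTTCC.
Cxcl1, chr14:17479272-17479571, minus strand: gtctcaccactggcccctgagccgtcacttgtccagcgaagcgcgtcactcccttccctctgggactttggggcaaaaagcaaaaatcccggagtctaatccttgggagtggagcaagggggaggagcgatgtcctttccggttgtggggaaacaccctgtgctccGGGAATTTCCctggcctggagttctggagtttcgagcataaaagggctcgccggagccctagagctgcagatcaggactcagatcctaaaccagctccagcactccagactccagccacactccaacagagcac
Cxcl2, chr14:17467206-17467505, minus strand: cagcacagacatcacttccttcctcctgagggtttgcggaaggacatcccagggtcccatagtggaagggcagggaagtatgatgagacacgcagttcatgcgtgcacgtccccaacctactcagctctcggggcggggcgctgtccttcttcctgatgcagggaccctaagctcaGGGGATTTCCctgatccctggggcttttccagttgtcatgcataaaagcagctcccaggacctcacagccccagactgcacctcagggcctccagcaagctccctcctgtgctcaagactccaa
Of the 27457 rat promoters of this length, 2373 (8.64%) hold the TCF and LEF motif. Among Wnt pathway genes with a promoter in the table it was found in 5 of 13 that rose (38.5%), 0 of 4 that fell and 1 of 12 that did not pass (8.33%). The NF-kappaB motif is in 199 of all promoters (0.725%), and among cytokines and chemokines in 5 of 14 that rose (35.7%), 0 of 5 that fell and 2 of 20 that did not pass (10%). Among absorptive colonocyte genes that fell, 3 of 22 promoters (13.6%) held the HNF4 motif, CAAAGTCCA or CAAAGTTCA, against 184 (0.67%) of all. In the same list it was in 1 of 18 that did not pass (5.56%) and in 0 of 1 that rose. The E-box CACGTG was in 8 of 24 promoters of ribosome biogenesis genes that rose (33.3%) and in 3 of 8 of those that did not pass (37.5%), against 6.65% of all. A match describes these letters and shows no binding.

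Tumours of DSS rats differed from normal colon of untreated rats in 4572 of 26527 features, or 17.2% of those tested. Of these, 2257 (8.51%) were higher and 2315 (8.73%) lower in the tumours, and at least 2-fold differences made up 629 (2.37%) and 764 (2.88%). Over all features the median change was 0.0024, and the median standard error was 0.138. All 5 tumours lay on one side of all 5 normal samples in 3659 of the 26278 features with no missing value (13.9%), 1991 of them higher (7.58%) and 1668 lower (6.35%). With lot as a block 6394 features passed, and within lots 1 and 2 the counts were 5391 (3 rats against 3) and 1488 (2 against 2). Without the 3 arrays of raised signal it was 3659. With each array centred on its median in place of loess, 813 features passed and the split moved from 2257 higher and 2315 lower to 620 higher and 193 lower. The gene lists below are read against these shares.

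**Figure D1:**
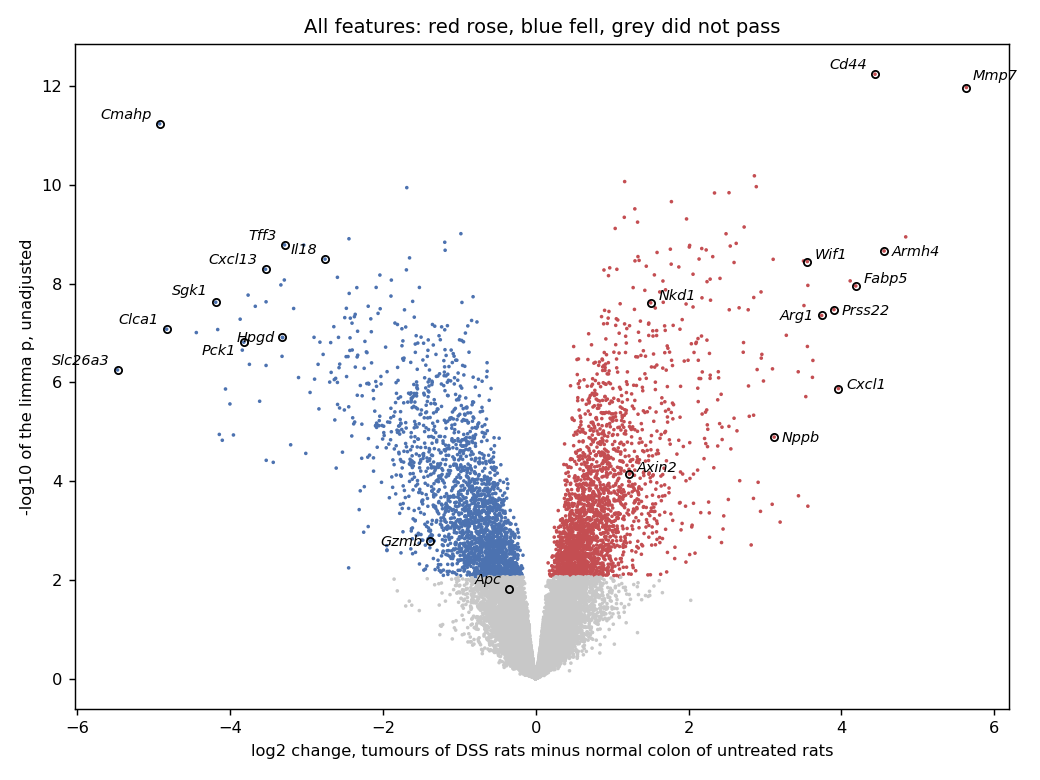
Each point is 1 of 26527 features, with the log2 change of tumours of DSS rats minus normal colon of untreated rats on the horizontal axis and -log10 of the unadjusted limma p on the vertical axis. Red points rose (2257), blue points fell (2315) and grey points did not pass; the circled genes are named in the text, with Mmp7 at 5.64 and Slc26a3 at -5.47.

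The largest increases were in a matrix protease, an adhesion receptor and several secreted or surface proteins. Mmp7, the metalloprotease matrilysin, had 4.95, 5.11, 4.84, 5.84 and 5.98 in the tumours and -0.31, -0.70, -0.27, -0.10 and -0.07 in normal colon. The groups were far apart, and the change was 5.64 ± 0.33 (49.8-fold, adjusted p = 1.4e-08). Cd44, a receptor for hyaluronan and a Wnt target, had 2.31, 2.09, 2.58, 2.55 and 2.09 against -1.83, -2.84, -2.48, -2.0 and -1.42. All tumours were above the pool and all normal samples below it, with a change of 4.44 ± 0.25 (adjusted p = 1.4e-08). A second, dimmer Cd44 probe rose by 0.78 (adjusted p = 0.0131), so the size depends on the probe. Armh4 was at 4.47 to 5.07 in tumours and -0.19 to 0.60 in normal colon (change 4.56 ± 0.42).

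Fabp5, a fatty acid carrier known from epidermis, had 0.61, 0.28, 1.36, 1.44 and 1.33 in tumours and -3.59, -3.75, -3.89, -1.79 and -2.9 in normal colon. The 2 rats of lot 2 were the highest of the normal samples, and the change was 4.19 ± 0.43 (18.2-fold, adjusted p = 4.4e-06). The serine protease Prss22 rose by 3.9 ± 0.43 and was well above background on 4 of 7 normal arrays. Tm4sf1, a small membrane protein of the tetraspanin-like group, rose by 3.63 ± 0.47 with tumours at 2.93 to 3.82. Cited1, a transcriptional coregulator, rose by 3.28 ± 0.39 with tumours at 2.74 to 3.89 and normal colon at -0.42 to 0.34. Nppb, the precursor of brain natriuretic peptide, had 2.73, 3.18, 3.24, 2.4 and 4.2 in tumours and was well above background on all 6 tumour arrays and on 0 of 7 normal arrays. The 5 tumours were all above the normal samples (change 3.12 ± 0.53, adjusted p = 0.000423), and no fold is given because the normal side was not measured above background.

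The largest decreases were in transporters, enzymes and secreted proteins of differentiated colon. Slc26a3, the chloride and bicarbonate exchanger of the colonocyte surface, had -2.98, -4.43, -5.14, -5.5 and -5.49 in tumours and 0.33, 1.57, 2.14, -0.44 and 0.24 in normal colon. Tumour rat 1 was the least reduced, and still lay below the lowest normal sample. The change was -5.47 ± 0.73 (44.4-fold lower, adjusted p = 5.0e-05). Clca1, a protein of goblet cell mucus, had -3.68, -4.81, -5.17, -4.66 and -5.28 against 0.24, 0.09, -0.07, -0.22 and 0.52, a change of -4.83 ± 0.56. Its Cy5 signal was saturated on 11 of 24 arrays, which limits how far its ratio can be read. Klk1, a tissue kallikrein, changed by -4.16 ± 0.49, the brush border protease Mep1a by -4.1 ± 0.70 and the retinal dehydrogenase Aldh1a1 by -3.87 ± 0.44. In each of these genes the highest tumour was below the lowest normal sample. Genes were named for the size of their change only if the groups did not overlap, so the separation adds no support. Most genes named from a list below had its smallest p-values, so separation adds no support there either.

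Wnt pathway targets and feedback genes rose more often than they fell. Of 44 measured members, 19 rose, 4 fell and 21 did not pass, with a median change of 0.41 against 0.0024 over all features. Axin2, a feedback inhibitor induced by beta-catenin, had 0.89, 1.58, 1.99, 1.74 and 1.04 in tumours and 0.29, 0.35, 0.18, 0.27 and 0.02 in normal colon. Each tumour was above each normal sample, and the increase was 1.23 ± 0.24 (adjusted p = 0.00151). Nkd1, another feedback inhibitor, had 0.97, 0.57, 0.92, 1.23 and 0.71 against -0.90, -0.67, -0.87, -0.60 and -0.08 (change 1.51 ± 0.16, adjusted p = 7.3e-06). The secreted Wnt inhibitor Wif1 had 3.59, 3.21, 3.61, 3.48 and 3.35 against -0.22, 0.07, 0.04, -0.37 and -0.04, the tumours lying within 0.40 of each other. Its increase was 3.55 ± 0.34 (adjusted p = 2.2e-06). Ascl2, a transcription factor of the crypt base, had 1.88, 1.86, 1.73, 2.77 and 2.78 against 0.46, -0.24, -0.16, 1.09 and 0.44 (change 1.89 ± 0.30). In it the tumours of rats 7 and 9, both of lot 2, were the highest samples. Axin2 changed by 1.21 within lot 1 (adjusted p = 0.0289) and by 1.25 within lot 2 (adjusted p = 0.0579). For the whole list 20 rose within lot 1, 5 within lot 2 and 12 under median centring.

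For the mutated gene itself and most of the complex it belongs to the change did not pass. Apc had -0.59 to 0.19 in tumours and 0.05 to 0.51 in normal colon, with overlapping groups and a change of -0.35 ± 0.13 that did not pass (adjusted p = 0.077). Over the 27 other settings the change was -0.64 to -0.22, and it passed in 4, one of them without rat 10. The lowest value, -0.59, was that of rat 9, and the other tumours were at 0.00 to 0.19. A transcript level does not show a point mutation, so this value does not check the genotype. Of 20 measured genes of Apc and the destruction complex, 3 rose, 0 fell and 17 did not pass (median 0.05). One that rose was Csnk1e, a casein kinase, at 0.72 ± 0.20 (adjusted p = 0.0156). A dimmer Csnk1e probe had 0.29 and did not pass. Within lot 2 and under median centring 0 genes of this list rose. Of 20 intestinal stem cell genes, 5 rose and 1 fell (median 0.20). The stem cell receptor Lgr5 had -0.18, -0.82, -0.63, -0.61 and 0.09 in tumours and -0.96, -0.94, -0.85, -1.35 and -0.16 in normal colon. The groups overlapped, and the change of 0.42 ± 0.20 did not pass (adjusted p = 0.168), but over the 27 other settings it ranged from 0.29 to 0.99 and passed in 4, one of them without rat 10. The member that fell was Prom1, a membrane protein of epithelial protrusions, at -2.33 ± 0.30, and one that rose was Hopx, known from reserve stem cells, at 1.44 ± 0.25. Prom1 did not pass under median centring (adjusted p = 0.149 in limma), nor did Hopx within lot 2 (adjusted p = 0.35). Of the stem cell genes 1 rose within lot 2, and 3 rose and 0 fell under median centring. Among Eph receptors and ephrins, which sort cells along the crypt, 3 of 14 rose and 1 fell (median 0.02), with the receptor Ephb3 at 0.79 ± 0.18 and the ligand Efna4 at 0.99 ± 0.15. Within lot 2, 0 of the 14 rose, and under median centring 1 did. Ephb3 did not pass in 4 of 27 other settings.

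**Figure D2:**
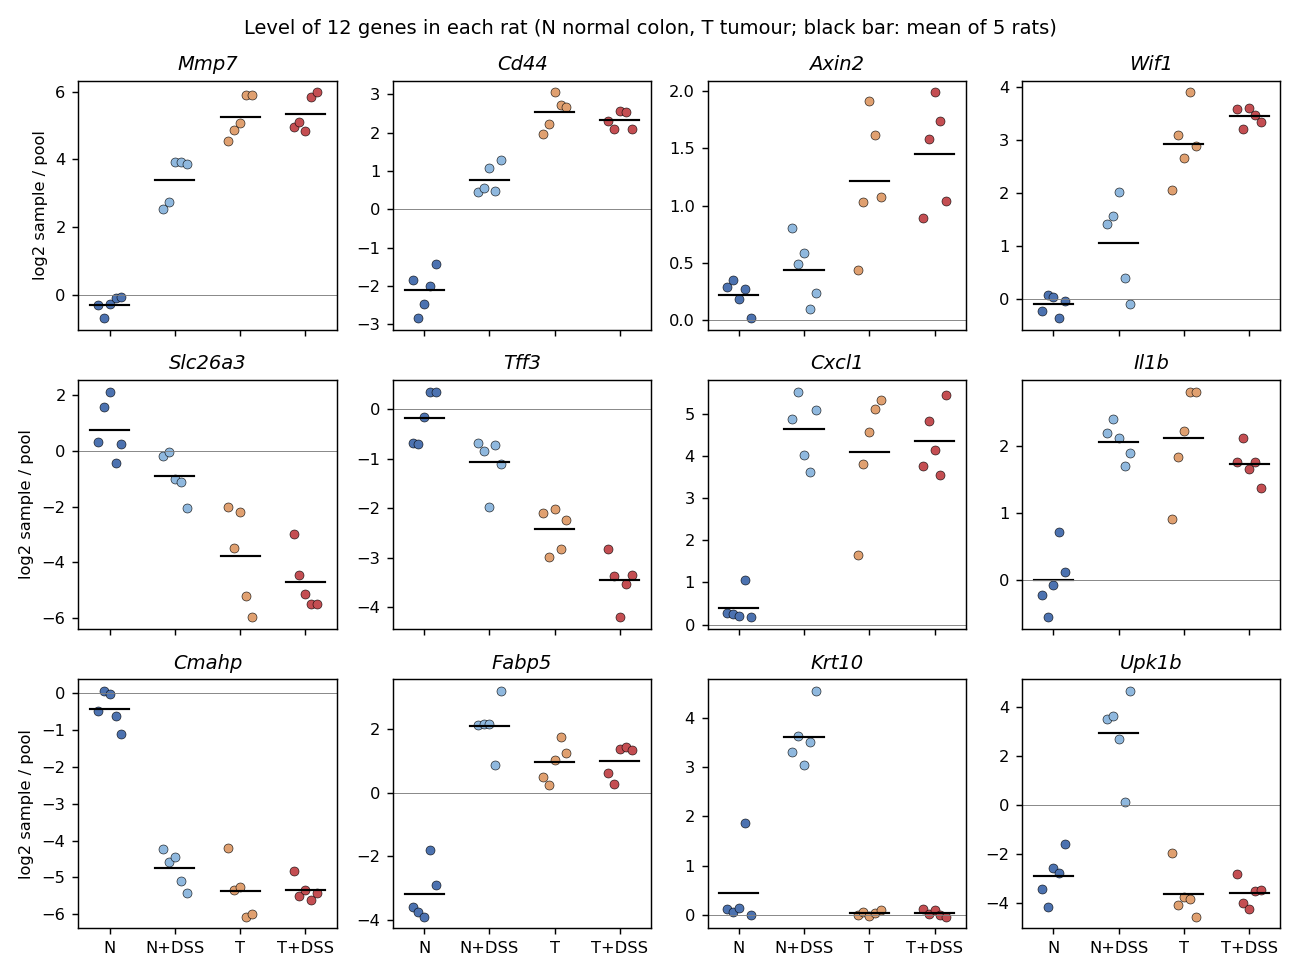
Each point is the level of 1 rat, as log2 of sample over pool, for 12 genes in the 4 groups of the series; N is normal colon, T tumour, +DSS treated rats, and the black bar the mean of 5 rats. In Mmp7, Cd44, Axin2 and Wif1 the DSS tumours lie above all normal samples of untreated rats, in Slc26a3, Tff3 and Cmahp below them, and in Krt10 and Upk1b the high points are normal colon of DSS rats.

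Genes of absorptive colonocytes fell as a group. Of 50 measured, 27 fell, 1 rose and 22 did not pass, with a median change of -0.92. The mean of the list was -2.20 to -1.61 in the tumours and -1.09 to -0.32 in normal colon, so that the groups did not overlap. Sgk1, a kinase that raises sodium uptake under aldosterone, had -3.32, -3.87, -4.24, -3.76 and -3.65 in tumours and 0.20, 0.37, 1.13, -0.36 and 0.76 in normal colon (change -4.19 ± 0.45, adjusted p = 7.3e-06). Nr3c2, the receptor for aldosterone, fell to -2.71 to -1.61 from 0.04 to 0.76 (change -2.43 ± 0.30, and -0.30 on a dimmer probe). The proton pump Atp12a changed by -3.84 ± 0.48, Slc16a1, a carrier of lactate and short-chain fatty acids, by -1.75 ± 0.20, and the peptidase Dpp4 by -2.44 ± 0.26. Pck1, an enzyme of glucose synthesis, changed by -3.82 ± 0.47 (adjusted p = 2.2e-05). Krt20, a keratin of mature surface cells, changed by -2.61 ± 0.50, with rat 10 normal colon alone high at 1.45 and Cy5 saturated on 15 of 24 arrays. Not every mature marker fell. The change of the carbonic anhydrase Car1, -0.40 ± 0.18, missed the threshold (adjusted p = 0.145), but its Cy5 signal was saturated on 22 of 24 arrays. Slc9a3 rose by 0.97 ± 0.29 (adjusted p = 0.0248 in limma), and of 6 defining absorptive markers 4 fell and 1 rose. Under median centring 8 of the 50 genes fell, and within lots 1 and 2 the counts were 27 and 18.

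Genes for chloride secretion and ion channels went the same way, with 11 of 28 lower, 3 higher and a median of -0.52. Kcnk5, a potassium channel, had -2.34, -2.5, -2.75, -1.88 and -1.71 in tumours and 0.00, -0.54, 0.18, -0.28 and -0.21 in normal colon. No value was shared between the groups (change -2.06 ± 0.23, adjusted p = 9.9e-06). Guca2a, the gut hormone guanylin, and Gucy2c, its receptor, changed by -2.4 ± 0.38 and -1.44 ± 0.19, with guanylin's Cy5 signal saturated on all 24 arrays. Under median centring 1 of the 28 genes fell, and within lots 1 and 2 the counts were 16 and 4.

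The secretory lineages were lower as well. Of 31 goblet and secretory genes, 21 fell and 0 rose (median -1.02), and the list mean was -1.58 to -1.0 in tumours against 0.04 to 0.26 in normal colon. Tff3, a trefoil peptide released with mucus, had -2.82, -3.37, -4.21, -3.53 and -3.35 against -0.68, -0.70, -0.16, 0.36 and 0.34. The groups stood well apart, although Cy5 was saturated on 19 of 24 arrays, and the change was -3.29 ± 0.30 (adjusted p = 1.8e-06). The membrane mucin Muc1 changed by -2.19 ± 0.24. Muc2, the main gel-forming mucin, had -0.23, -0.73, -0.54, -1.13 and -0.83 against 0.60, 0.14, 0.56, -0.14 and -0.10. Its groups did not overlap either, but the change of -0.90 ± 0.32 did not pass (adjusted p = 0.0617), with a signal above background on 1 of 6 tumour arrays. It did pass in 13 of 27 other settings, among them lot as a block (adjusted p = 0.00118), rat as a random block (adjusted p = 0.0465), lot 1 alone (adjusted p = 0.00387) and without rat 8 (adjusted p = 0.0349). It also passed without background correction and with the processed signals, and over the 27 settings the change was -3.25 to -0.76. Of 25 enteroendocrine genes, 10 fell and 2 rose (median -0.25). The hormones Pyy and Cck changed by -2.18 ± 0.31 and -1.45 ± 0.24, while secretin, Sct, went the other way at 2.06 ± 0.20 with tumours at 0.28 to 0.86 and normal colon at -1.77 to -1.11. Of 32 transcription factors of intestinal identity, 12 fell and 1 rose, with Klf4, a factor of goblet and surface cell maturation, at -2.43 ± 0.27. Under median centring 10 goblet, 1 enteroendocrine and 2 transcription factor genes fell, and within lot 2 the counts were 10, 4 and 4.

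**Figure D3:**
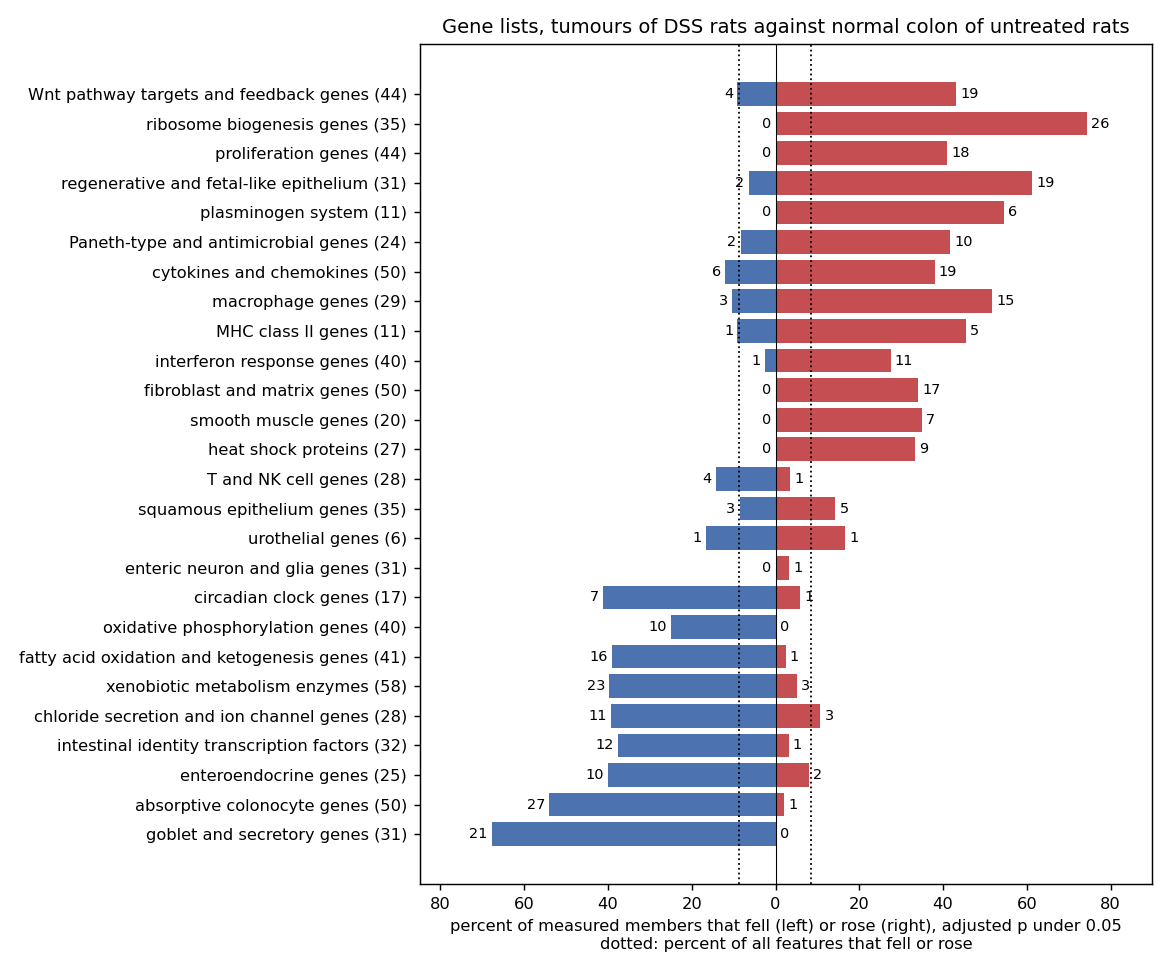
Bars give the percent of measured members of 26 gene lists that rose (right, red) or fell (left, blue) at an adjusted p under 0.05, with the counts at the bar ends and the number measured in brackets; dotted lines mark the percent of all features that rose (8.51%) or fell (8.73%). Ribosome biogenesis genes (26 of 35 higher) and goblet genes (21 of 31 lower) reach farthest from the dotted lines.

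Genes that mark regenerating or fetal-like gut epithelium rose in the tumours. Of 31 measured, 19 rose, 2 fell and 10 did not pass, with a median of 1.33, and the list mean was 0.95 to 1.19 in tumours and -0.37 to 0.04 in normal colon. Tnfrsf12a, the receptor of the cytokine TWEAK, had 2.71, 2.84, 2.84, 2.51 and 1.84 against -0.44, 0.16, 0.08, -0.87 and -0.09 (change 2.78 ± 0.31, adjusted p = 8.6e-06), with no overlap between the groups. Anxa5, an annexin, rose by 1.54 ± 0.20. Under median centring 11 of the 31 genes rose, within lot 2 it was 7, and 2 of the 19, Cd44 and Plaur, are also counted in other lists here.

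Proteases that open the matrix rose beside them. Of 11 genes of the plasminogen system, 6 rose and 0 fell (median 0.83). Plat, the tissue plasminogen activator, had 1.9, 1.97, 2.17, 2.4 and 2.4 against 0.08, 0.09, 0.34, -0.29 and 0.14 (change 2.1 ± 0.26, adjusted p = 2.2e-05). Plaur, the receptor that holds urokinase at the cell surface, rose by 1.39 ± 0.23. No tumour reached down to a normal value in either gene. Of 26 matrix proteases and inhibitors, 8 rose and 2 fell (median 0.38), with the elastase Mmp12 at 1.74 ± 0.36, the membrane protease Mmp14 at 1.35 ± 0.30 and the inhibitor Timp4 at -1.76 ± 0.28. Under median centring, and again within lot 2, 3 genes of each of these lists rose.

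Chemokines that attract neutrophils were among the most raised genes. Cxcl1 had 3.76, 4.84, 4.14, 3.56 and 5.45 in tumours and 0.27, 0.24, 0.20, 1.06 and 0.17 in normal colon, where rat 8 was the highest. The change was 3.96 ± 0.56 (15.6-fold, adjusted p = 8.7e-05). Cxcl2 had 3.42, 5.19, 4.21, 2.78 and 5.38 against 0.41, 0.54, 0.27, 2.3 and 0.26, again with rat 8 apart. Its change was 3.44 ± 0.74 (adjusted p = 0.00318), and within lot 2, which holds rat 8, it did not pass (2.80, adjusted p = 0.216). Cxcl3 rose by 2.39 ± 0.33, and the inflammatory cytokine Il1b, at 1.76, 2.13, 1.65, 1.76 and 1.38 against -0.24, -0.57, -0.08, 0.71 and 0.11, by 1.75 ± 0.30 (adjusted p = 0.000465). Of 50 cytokines and chemokines in all, 19 rose, 6 fell and 25 did not pass (median 0.41), and 6 rose within lot 2. Those that fell included Il18, an epithelial cytokine, at -2.76 ± 0.26, and the B cell attractant Cxcl13, at -2.19, -2.81, -3.74, -3.42 and -3.22 against 0.63, 0.56, 0.20, 0.83 and 0.08 (change -3.54 ± 0.34, adjusted p = 2.7e-06). Cxcl14, a chemokine of epithelia, rose by 2.13 ± 0.27 on its brighter probe and had -0.06 on the other, which did not pass.

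Markers of immune cells differed by cell type. Of 21 neutrophil genes, 5 rose and 1 fell (median 0.19), and the mean of 4 defining markers was 1.29 to 1.83 in tumours and 0.02 to 0.71 in normal colon. Of these 4 markers S100a8 and S100a9 rose, while Cxcr2 (0.08) and Csf3r (0.29), chosen as markers of the cell type, did not pass and were above background on 2 of 6 tumour arrays. S100a9, a subunit of calprotectin, had 2.8, 3.49, 3.68, 3.33 and 3.54 against 0.16, -0.05, 0.06, 1.82 and 0.35, with rat 8 normal colon apart (change 2.9 ± 0.39). Its partner S100a8 rose by 2.41 ± 0.39 on the brightest probe, while its other probes had 0.39 and 0.44 and did not pass. Of 29 macrophage genes, 15 rose and 3 fell (median 0.65), with the lysozyme Lyz2 at 2.28 ± 0.31 and the receptor Tlr2, at 2.29 to 2.4 against -0.44 to 1.38, at 1.94 ± 0.25. Those that fell included Ctss at -1.69 ± 0.30 and Ctsd at -1.32 ± 0.25. Of 4 measured defining macrophage markers, C1qa (1.56) and Csf1r (0.37) rose, while Cd68 (0.82) and Cd14 (-0.64) did not pass. Of 28 T and NK cell genes, 1 rose and 4 fell (median 0.07), and those that fell included the cytotoxic protease Gzmb at -1.38 ± 0.37. None of the 4 measured defining T cell markers passed, and their median change was 0.26. Gzmb overlapped between the groups and did not pass in 5 of 27 other settings. Among these were lot 1 alone (adjusted p = 0.246 in limma), lot 2 alone (adjusted p = 0.0545), median centring and the fit without rat 6. Its dimmer probes had -0.99 and -0.25 and did not pass. Without rat 8, 3 neutrophil and 10 macrophage genes rose, and within lot 2 it was 1 and 6.

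Antigen presentation and interferon genes followed. Of 11 MHC class II genes, 5 rose and 1 fell (median 0.21), with RT1-Bb at 0.25, 0.09, 0.17, 0.73 and -0.58 against -0.86, -1.29, -1.11, -1.02 and -1.43. No tumour was as low as a normal sample (change 1.27 ± 0.26), and the invariant chain Cd74 rose by 0.98 ± 0.26. Within lot 2 and under median centring 1 MHC class II gene rose, and neither of these 2 passed there. Of 40 interferon response genes, 11 rose, 1 fell and 28 did not pass (median 0.44), and 3 rose under median centring and 1 within lot 2. Gbp2, an interferon-induced GTPase, had 2.5, 2.37, 2.95, 2.82 and 3.03 against -0.64, -1.6, -0.37, -0.81 and -0.44 (change 3.5 ± 0.33, adjusted p = 2.2e-06). Cxcl11, an interferon-induced T cell attractant, rose by 2.18 ± 0.34, with the 3 tumours of lot 1 at 1.33 to 1.61 and those of lot 2 at 0.36 and 0.40. In the prostaglandin pathway, one enzyme that makes prostaglandins rose and one that degrades them fell. Ptgs2, the inducible cyclooxygenase, had 0.76, 1.5, 1.87, 1.47 and 0.95 against 0.28, 0.24, 0.14, 0.09 and 0.01 (change 1.16 ± 0.25, adjusted p = 0.00276), and Hpgd, which degrades prostaglandins, had -4.14, -3.8, -5.15, -5.02 and -4.94 against -1.24, -1.25, -1.02, -1.74 and -1.22 (change -3.32 ± 0.40, adjusted p = 1.9e-05). The groups were separate in both, although Cy5 of Hpgd was saturated on 8 of 24 arrays, and of the 25 genes of this pathway 3 rose and 5 fell (median 0.08).

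Antimicrobial genes that mark Paneth cells, a cell type normally found in the small intestine, were higher. Of 24 Paneth-type and antimicrobial genes, 10 rose and 2 fell (median 0.21). The defensin Defa6 had 4.77, 4.90, 4.47 and 5.09 in the tumours of rats 1, 5, 6 and 7, and no usable value in rat 9. Normal colon was at -0.48, 0.06, -0.37, 0.27 and 0.35, and the change fitted without rat 9 was 4.84 ± 0.41 (adjusted p = 1.6e-06). The defensin RatNP-3b had 3.29, 3.83, 3.16, 4.35 and 4.23 against 0.23, 0.15, -0.36, 1.18 and -0.14 (change 3.56 ± 0.36). Defensins are near-identical copies of each other, so probes of this family may share signal. Of other antimicrobial genes, Reg3b, a lectin, overlapped widely at -3.45 to -2.25 against -4.52 to -1.82 (0.44 ± 1.11, adjusted p = 0.871). Lcn2, a protein that binds bacterial iron carriers, stayed within 0.16 of the pool in every sample of both groups, and was well above background on 3 of 6 tumour and 5 of 7 normal arrays.

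Stromal genes rose too. Of 50 fibroblast and matrix genes, 17 rose, 0 fell and 33 did not pass (median 0.32), and 6 rose within lot 2. The proteoglycan Dcn had -0.48, -0.28, -0.04, 0.57 and 0.22 in tumours and -2.7, -3.63, -2.43, -3.92 and -1.58 in normal colon (change 2.85 ± 0.44, adjusted p = 0.000208), and fibronectin, Fn1, -1.21, -1.3, -0.83, 0.06 and -0.50 against -2.54, -3.07, -2.55, -2.52 and -1.6 (change 1.7 ± 0.28). Rat 10 was the highest of the normal samples in both. Of 5 defining fibroblast markers 4 rose, with a mean of -1.77 to -0.47 in tumours and -3.40 to -1.93 in normal colon. Of 20 smooth muscle genes, 7 rose and 0 fell (median 0.14), with the myosin light chain Myl9 at 1.63 ± 0.28 and tropomyosin Tpm1 at 0.88 ± 0.14. Dimmer Tpm1 probes had 1.22, which passed, and 0.21 and 0.43, which did not. None of the 3 measured defining smooth muscle markers passed. Of 31 neuron and glia genes 1 passed, and of 23 endothelial genes 2. How much these cell types contribute to the other lists was not tested.

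Growth genes were higher in the tumours. Of 35 ribosome biogenesis genes, 26 rose, 0 fell and 9 did not pass (median 0.87), and the list mean was 0.71 to 1.28 in tumours and 0.02 to 0.21 in normal colon. Mrto4, a ribosome assembly factor, had 0.82, 0.70, 1.05, 1.41 and 1.33 against -0.34, -0.66, -0.34, -0.49 and -0.52 (change 1.53 ± 0.18, adjusted p = 1.6e-05). The assembly factors Bop1 and Nop56 rose by 1.18 ± 0.15 and 1.28 ± 0.18. Of 44 proliferation genes, 18 rose and 0 fell (median 0.58), with a list mean of 0.21 to 0.98 in tumours and -0.24 to 0.09 in normal colon. Stmn1, a regulator of microtubules in mitosis, had 0.84, 1.02, 1.01, 1.41 and 1.51 against -0.01, -0.23, -0.38, 0.20 and -0.35 (change 1.31 ± 0.17). The deoxynucleotide enzyme Rrm2 and the spindle checkpoint gene Mad2l1 rose by 1.4 ± 0.25 and 0.97 ± 0.18. Within lot 1, 7 proliferation genes rose, and within lot 2, 14. Under median centring the medians were 1.2 for ribosome biogenesis and 0.95 for proliferation, but 2 ribosome biogenesis and 0 proliferation genes passed.

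Some genes for arginine use and protein folding also rose. Arg1, the enzyme that splits arginine, had 3.64, 3.69, 3.4, 3.9 and 3.96 against -0.06, -0.17, -0.43, 0.20 and 0.33 (change 3.74 ± 0.42, adjusted p = 1.1e-05), and Ass1, which rebuilds it, 1.1, 1.0, 1.89, -0.13 and 0.58 against -2.05, -2.95, -1.72, -3.18 and -1.17 (change 3.1 ± 0.41). Neither gene overlapped between the groups. Of 25 genes of arginine and polyamine metabolism 6 rose, 1 fell and 18 did not pass (median 0.1), and 2 rose under median centring and 3 within lot 2. Of 27 heat shock proteins, 9 rose and 0 fell (median 0.32; 1 rose under median centring), with the chaperones Dnaja1 at 1.35 ± 0.13 and Hsp90aa1 at 1.57 ± 0.22. Pgk1, a glycolytic enzyme, rose by 1.48 ± 0.17, but of 33 hypoxia and glycolysis genes 4 rose and 5 fell.

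Mitochondrial and detoxifying enzymes were lower. Of 41 genes of fatty acid oxidation and ketogenesis, 16 fell and 1, Fabp5, rose (median -0.33), and under median centring the median was 0 and 1 fell. Acads and Hadh, dehydrogenases of fatty acid breakdown, changed by -1.42 ± 0.21 and -1.1 ± 0.17, with tumours at -1.65 to -1.1 and normal colon at -0.46 to -0.03 in Hadh. Of 40 oxidative phosphorylation genes, 10 fell and 0 rose with a median of -0.28, which turned to 0.20 with 0 genes lower under median centring. Cox5b, a subunit of cytochrome oxidase, had -1.15, -1.26, -1.48, -1.38 and -1.42 against -0.42, -0.45, -0.59, -0.29 and -0.34. The tumours were all lower (change -0.92 ± 0.11, and -0.33 with adjusted p = 0.731 under median centring). Sdhd, a subunit of succinate dehydrogenase, changed by -0.82 ± 0.12, with Cy5 saturated on 8 arrays each for it and for Cox5b. Of 58 xenobiotic enzymes, 23 fell, 3 rose and 32 did not pass (median -0.37), and 5 fell under median centring and 10 within lot 2. The cytochrome P450 Cyp3a62 changed by -2.16 ± 0.24, against 2.28 ± 0.23 for the aldo-keto reductase Akr1b8. Within the family of retinal dehydrogenases Aldh1a1 fell, as above, and Aldh1a3 rose by 2.18 ± 0.23, with tumours at 2.27 to 2.8 and normal colon at 0.02 to 0.61. Of 17 circadian clock genes, 7 fell and 1 rose (median -0.22), with Nr1d1 at -0.62, -1.18, -1.49, -0.90 and -0.27 against -0.29, 0.90, 1.47, -0.08 and 0.20. Its groups overlapped (change -1.33 ± 0.30). The labels give the light cycle and no hour of sampling, and 0 of the 17 genes fell in lot 2 alone or under median centring.

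Genes of sialic acid metabolism moved both ways. Cmahp, which encodes the hydroxylase that turns one sialic acid, Neu5Ac, into another, Neu5Gc, had -4.84, -5.5, -5.36, -5.61 and -5.43 in tumours and -0.47, 0.08, -0.01, -0.61 and -1.11 in normal colon. The gap between the groups was wider than the spread within either, and the change was -4.92 ± 0.32 (30.3-fold lower, adjusted p = 5.1e-08). Of 24 sialic acid genes, 7 fell and 3 rose, with a median of -0.19 that moved to 0.01 under median centring, where 1 fell and 2 rose. The sialyltransferases St6galnac4 and St3gal5 changed by -1.58 ± 0.19 and 2.17 ± 0.26, and the fucosyltransferase Fut4 by -2.34 ± 0.30. Of these, St6galnac4 (adjusted p = 0.154) and Fut4 (adjusted p = 0.113) did not pass under median centring. Of 22 cell cycle inhibitors and senescence genes 3 rose and 5 fell (median -0.16). Btg1 changed by -1.77 ± 0.28, and Cdkn1c rose by 2.44 ± 0.40 on its brightest probe and by 1.31 to 1.37 on the others. Btg1 did not pass under median centring (adjusted p = 0.318 in limma), nor did Cdkn1c within lot 2 (adjusted p = 0.117).

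**Figure D4:**
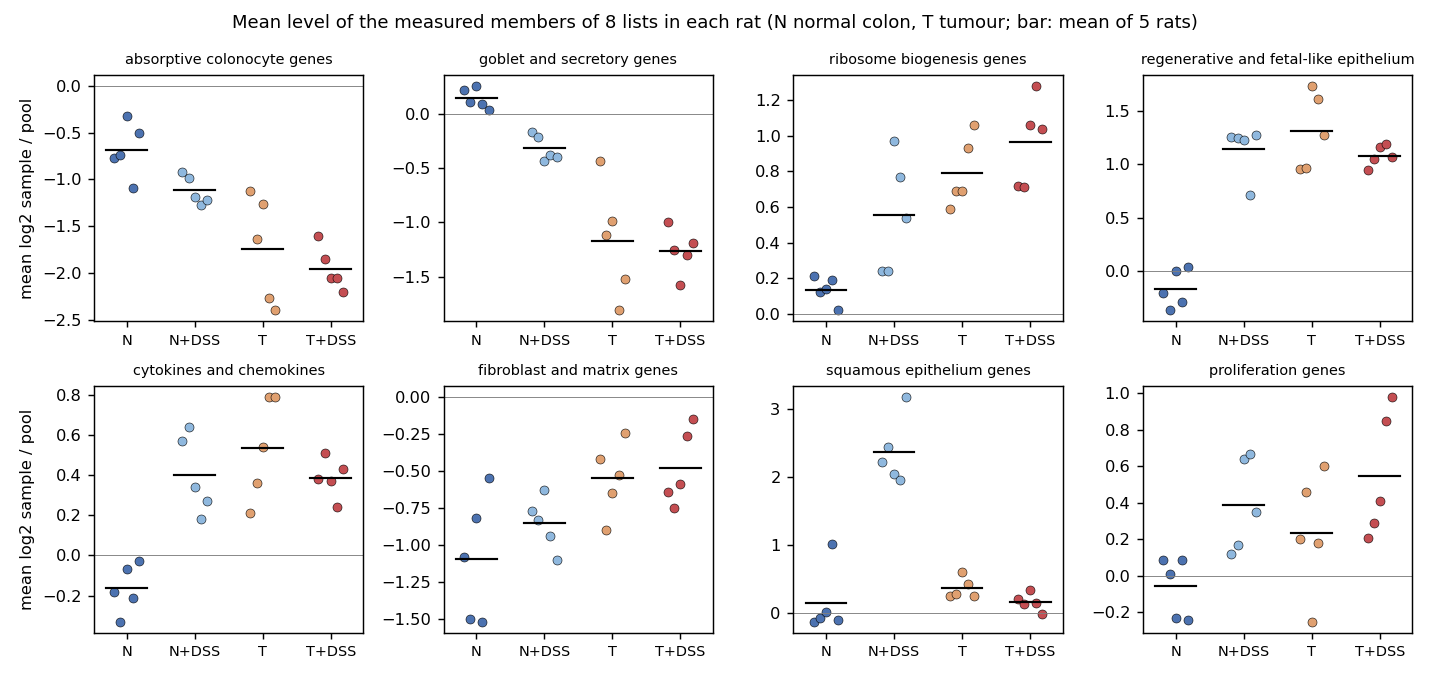
Each point is the mean level of the measured members of a gene list in 1 rat, as log2 of sample over pool, for 8 lists in the 4 groups; N is normal colon, T tumour, +DSS treated rats, and the bar the mean of 5 rats. Absorptive and goblet genes are lowest in tumours, ribosome biogenesis genes are 0.71 to 1.28 in tumours of DSS rats, and squamous genes are high in normal colon of DSS rats (1.96 to 3.18) and in 1 untreated rat (1.01).

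The same tumours can be set against the normal colon of their own DSS rats, where 2015 features (7.6%) passed, 990 higher (3.73%) and 1025 lower (3.86%), or 3410 with rat as a block, since those 2 tissues come from the same animals. Rats 1 and 5 had very similar normal colon, with a correlation of 0.97 across features. Both comparisons share the tumours, so their values are given side by side and no agreement between them is counted. For Wnt pathway genes, 19 rose and 4 fell against normal colon of untreated rats, and 17 rose and 2 fell against that of DSS rats. Axin2 had 1.23 and 1.01, Nkd1 1.51 and 1.27, Ascl2 1.89 and 1.93, and Armh4 4.56 and 3.87, and each passed in both comparisons. Mmp7 and Cd44 passed in both as well, but with smaller changes against the DSS reference, at 5.64 and 1.95, and 4.44 and 1.56. Both were also among the 8 genes named for the smallest p-values between normal colon of DSS rats and that of untreated rats. For absorptive genes the counts were 27 and 18 lower, and for goblet genes 21 and 17 lower.

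For other lists the counts of genes that passed were further apart. Cytokines and chemokines gave 19 higher and 6 lower against untreated normal colon (median 0.41), and 5 higher and 4 lower against DSS normal colon (median -0.04). Cxcl1 had 3.96 and -0.29 (adjusted p = 0.839 for the second), and Il1b 1.75 and -0.33 (adjusted p = 0.6). Regenerative genes gave 19 higher against the untreated reference and 3 higher and 5 lower against the other, with Tnfrsf12a at 2.78 and 0.72. Proliferation genes gave 18 higher against the untreated reference (median 0.58) and 1 higher against the other (median 0.04). In normal colon of DSS rats 7 of the 44 proliferation genes were higher than in that of untreated rats (median 0.45). Paneth-type and antimicrobial genes gave 10 higher and 2 lower against the untreated reference (median 0.21), and 2 higher and 5 lower against the other (median -0.02). In normal colon of DSS rats 10 of these 24 genes were higher and 1 lower than in that of untreated rats (median 0.75). Of other genes, Plat had 2.1 and -0.27, and Fabp5 4.19 and -1.1. Cmahp had -4.92 and -0.59 (adjusted p = 0.323), and the normal colon of DSS rats was at -5.42 to -4.22. In direct comparison normal colon of DSS rats differed from that of untreated rats by 4.25 ± 0.56 in Cxcl1, 5.29 ± 0.43 in Fabp5 and -4.33 ± 0.32 in Cmahp (adjusted p = 0.000124, 1.8e-06 and 6.6e-07 in limma), and 1929 features (7.27%) passed, 1040 of them higher (3.92%) and 889 lower (3.35%).

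Squamous epithelium genes, which belong to skin-like lining such as that of the anus, had the widest gap in median between the references among the lists compared here. Against normal colon of untreated rats 5 of 35 rose, 3 fell and 27 did not pass (median -0.11, and 0.07 at most, with a median above 0 without rat 8, within lot 1 and with array weights). Against normal colon of DSS rats 1 rose and 24 fell (median -2.17). The keratin Krt10 had 0.11, 0.01, 0.10, -0.01 and -0.04 in tumours and 0.12, 0.06, 0.14, 1.86 and 0.00 in normal colon of untreated rats, with rat 8 alone high. In normal colon of DSS rats it had 3.3, 3.63, 3.03, 3.5 and 4.55, all above every tumour. Its change was -0.40 ± 0.29 against the untreated reference (adjusted p = 0.425) and -3.57 ± 0.29 against the DSS one. Krt10 was well above background on 1 of 6 tumour arrays, and the basal keratin Krt5, at -0.12 and -2.65, on 2 of 6. The urothelial protein Upk1b had -0.70 and -6.52, with DSS normal colon at 0.12 to 4.67. The members that rose against the untreated reference included the cross-linking enzyme Tgm1, at 1.73, 2.01, 2.12, 2.55 and 2.28 in tumours and 0.03, -0.05, 0.07, 0.37 and -0.01 in normal colon (change 2.06 ± 0.22). Lypd3 rose by 2.25 ± 0.36 and the serpin Serpinb5 by 1.34 ± 0.16. The 7 defining squamous markers had a mean of -0.09 to 0.18 in the tumours, 5 of them were well above background on fewer than 3 of the 6 tumour arrays, and none passed.

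**Figure D5:**
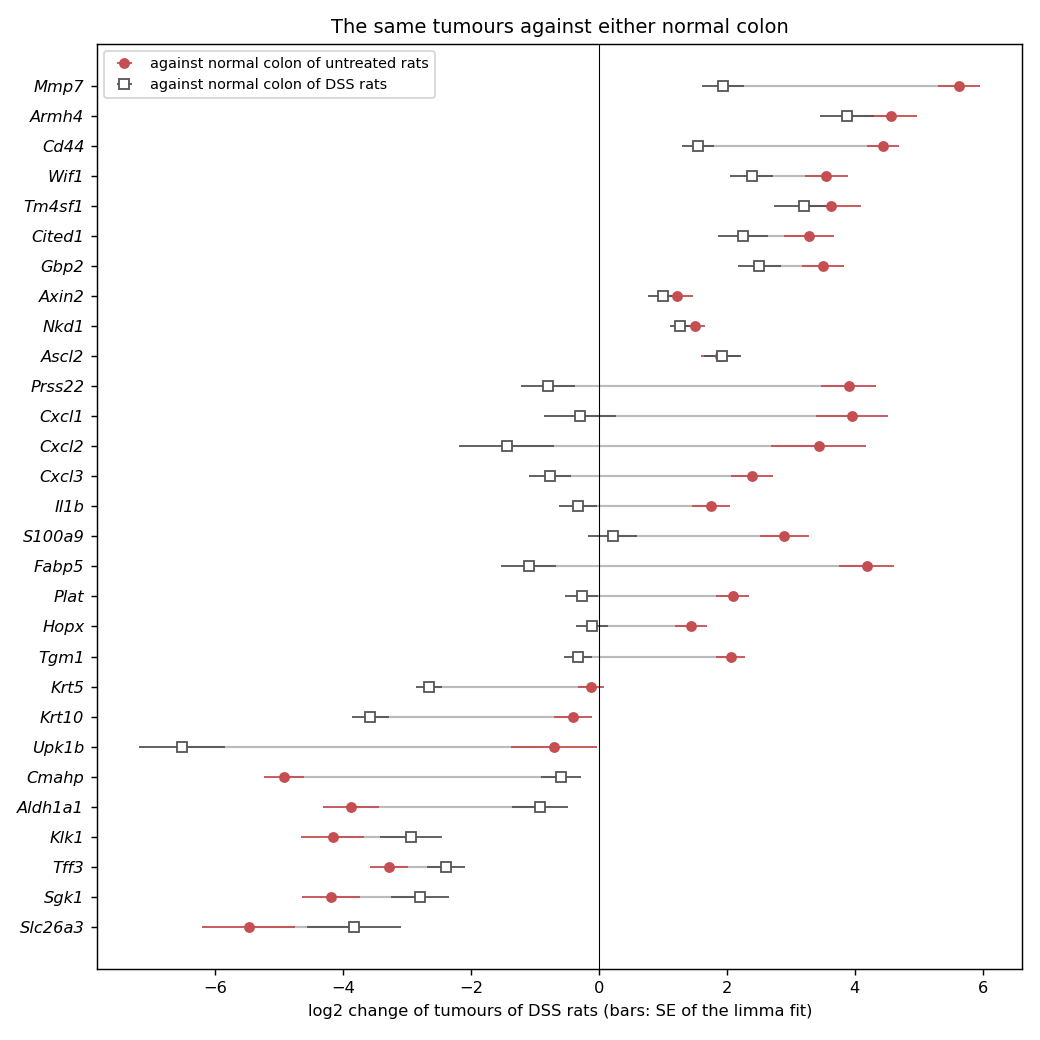
Log2 changes of tumours of DSS rats against normal colon of untreated rats (filled circles) and against normal colon of DSS rats (open squares) for 29 genes, with standard errors of the limma fit as bars. Armh4 (4.56 and 3.87) and Nkd1 (1.51 and 1.27) differ little between the references, Cxcl1 (3.96 and -0.29) and Fabp5 (4.19 and -1.10) are near or below 0 against the DSS reference, and Upk1b has -0.70 and -6.52.

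Tumours of untreated rats, set against the same 5 normal samples, differed in 4775 features (18%), 2272 higher (8.56%) and 2503 lower (9.44%). Those 2 tissues come from the same animals, and with rat as a block 6591 features passed. The list counts below are from the fit without that block. As this comparison shares its reference, its values are given only beside those of the DSS tumours. Mmp7 changed by 5.64 in DSS tumours and 5.56 in untreated ones, Cd44 by 4.44 and 4.65, Axin2 by 1.23 and 1.0, and Slc26a3 by -5.47 and -4.54. Of 44 proliferation genes 18 rose in DSS tumours (median 0.58) and 7 in untreated ones (median 0.22), and of 35 ribosome biogenesis genes 26 and 19 rose. The direct comparison of the tumours gave 0 of 26527 features in limma (smallest adjusted p 0.166, 1670 features or 6.3% at an unadjusted p under 0.05), so none of these differences was past the threshold. For proliferation genes the median of the direct comparison was 0.31, and for ribosome biogenesis genes 0.18. Among genes that passed against normal colon, Ostf1, an actin-related signalling protein, had -0.64 in DSS tumours and -0.18 in untreated ones, with -0.45 ± 0.09 directly (adjusted p = 0.177). The deoxyhypusine synthase Dhps, at 0.40 and -0.06, had 0.46 ± 0.09 (adjusted p = 0.196), and Pick1, a scaffold protein, 0.51 ± 0.10. C10h16orf89 had -1.47 and -0.62, and -0.85 ± 0.18 directly (adjusted p = 0.247), with DSS tumours at -1.09, -1.32, -1.63, -1.34 and -1.52 and untreated tumours at 0.12, -0.68, -0.40, -0.72 and -0.97. These 4 genes were named for their small p-values in the direct comparison and are described, not called.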

How the data were processed

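RNA of 20 samples (10 rats, 1 normal and 1 tumour sample each) was hybridised to 24 Agilent 2-colour rat arrays, 4 samples having 2 arrays each, with the sample in Cy3 and the pooled reference in Cy5 and no dye swap. The deposited values are scanner intensity per spot; per the file headers they were written by Agilent Feature Extraction 9.1.3.1. Processed signals of the same files, also made by the authors' scanner software, were an alternative, and the deposited log10 ratios were not used. The submitters' processing notes name Partek too, with no role stated. Here mean and background intensities were corrected by normexp (offset 50) and normalised by loess within each array in limma 3.58.1 (R 4.3.3). Log2 of Cy3 over Cy5 was taken and the arrays of a sample were averaged. Probes well above background in Cy3 on at least 5 of 24 arrays were kept (30463 of 41012), with the brightest probe per gene symbol. Current symbols came from RefSeq's table, and 19553 probes keep the name in the file. One model of 4 group means gave every test. Simulated data were used to check the fit.

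Gene lists, members and tests were chosen with earlier results of these data known. The named genes are a subset of the 15 largest increases and the 15 largest decreases past the threshold without overlap, the 4 smallest p-values of each list, a fixed set of 15 genes and, for each other comparison, the 8 smallest p-values among genes past the threshold here. Normal and tumour of the same rat deviated together from their group means (correlation across features 0.0795 to 0.567 over the 10 rats), as samples of 1 animal per the labels. The comparison made here is between different rats, so rat could enter it only as a random block. The number of arrays limits precision.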

Additional observations from a re-analysis of the deposited data

Results flagged for a closer look

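Of 219 sets of 5 values, from the genes named in the report, 14 (6.39%) had a sample far from the other 4, and chance gives about 1 in 20. Of the 14, 10 lay among the untreated normal samples and 4 among the DSS tumours. Rat 8 made up 7 of the 10. Its normal colon had 1.06 in Cxcl1 (others 0.17 to 0.27), 2.30 in Cxcl2 (others 0.26 to 0.54), 1.82 in S100a9 (others -0.05 to 0.35), and -3.61 in Cdkn1c (others -2.69 to -2.35). In squamous genes the same sample had 1.86 in Krt10 (others 0 to 0.14), 0.70 in Krt5 (others 0 to 0.14) and 0.37 in Tgm1 (others -0.05 to 0.07). The other normal samples so marked were rat 10 in Krt20 (1.45, others -0.18 to 0.24), rat 2 in Hadh (-0.03, others -0.46 to -0.34) and rat 3 in C10h16orf89 (-0.25, others 0.11 to 0.20). All 4 tumours so marked were rat 9, whose array was 1 of the 3 with raised signal. It had -0.59 in Apc (others 0.00 to 0.19), 1.40 in Efna4 (others 0.81 to 0.96), 2.40 in Tlr2 (others 2.29 to 2.32) and 1.05 in Mad2l1 (others 0.35 to 0.52). The part of the raised signal in these values was not tested.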

How the results depend on the processing

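Of 110 genes examined, 101 were past the threshold, and all 101 kept their direction in all 27 settings tried, 44 of them past the threshold in every one. Median centring left 60 of the 101 past it and lot 2 alone 73. Of the 9 genes not past it, Muc2 passed in 13 settings, Apc and Lgr5 in 4 each and Car1 in 1. The count of features that passed, 4572, moved to 813 with median centring, 6862 with scan day as a block and 1488 within lot 2 (2 rats against 2), and leaving out 1 rat gave 3504 to 4701. With rat as a random block (replicate block) it was 4570. For tumours of untreated rats against the same normal colon the count of 4775 moved to 913 with median centring and 6591 with rat as a block. Leaving out 1 rat gave 2629 (without rat 8) to 4991 there. Against normal colon of DSS rats, 2015 moved to 661 with median centring, 3235 with lot as a block and 3410 with rat as a block, and leaving out 1 rat gave 1101 (rat 5) to 1659, with 1192 without rat 1 and 1216 without rat 9. For the normal colon of both treatments, 1929 moved to 366 with median centring and 3526 with lot as a block, and leaving out 1 rat gave 1204 (rat 3) to 2224, with 1263 without rat 5. Between the tumours, leaving out 1 rat gave 0 to 3 (3 without rat 2), and the rat block changed no other call there (0). The cause was not tested. Ratios of probes with a saturated Cy5 signal, or near background in 1 group, are limited in size.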

Other observations

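Counts of further signalling lists, read against the 8.51% of all features that rose and the 8.73% that fell, were as follows. Of 49 EGF receptor ligands and growth factors 8 rose and 6 fell (median 0.07), and of 44 BMP, hedgehog and TGF-beta genes 7 rose and 6 fell (median 0.06). Of 23 Notch genes 2 rose and 2 fell, shares near those of all features. Of 30 immediate early genes, which respond quickly to growth signals, 6 rose and 2 fell (median 0.05), and 1 rose within lot 2. Of 26 cholesterol synthesis genes 5 rose and 1 fell (median 0.11), and none passed under median centring.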
